A study of Mus musculus with 33 samples.

Results

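DLN/CD127hi Tregs were compared with DLN/naive Tregs by bulk RNA-Seq, which took 6 of the 33 libraries of the series, 3 for each subset. The libraries were chosen by their titles and counted on autosomal genes. Both subsets were CD4+GFP+ cells sorted from the kidney lymph node of DEREG mice on a C57BL/6 background. These mice carry a diphtheria toxin receptor fused to EGFP under the Foxp3 promoter, so that GFP marks Tregs. DLN/CD127hi Tregs came from tolerant recipients, which had received porcine neonatal islet cell clusters of 4000 islet equivalents under the renal capsule, with 500 µg of MR-1, an antibody against CD154, given repeatedly and 500 µg of CTLA4-Fc given once. They were collected at day 100, and only the cells with high surface CD127 were kept. DLN/naive Tregs came from mice without a graft or treatment and were not divided by CD127. Graft, treatment and the CD127 gate therefore differ together between the subsets and cannot be told apart. DLN/CD127-/lo Tregs, the other gate of the same tolerant lymph nodes, stand beside the results where stated, as do the corresponding subsets of the spleen (SP). A figure legend of the study describes libraries from pools of a few mice but gives fewer naive lymph node mice than 3 separate pools would need. The labels do not tie mice to libraries. The 3 DLN/naive libraries may therefore not be independent. SEs and p-values rest on variation within the subsets of all 33 libraries, with information shared across genes. They do not measure the spread of these 6 libraries alone, and that variation may be technical.

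Tregs are CD4+ T cells that restrain immune responses and are defined by the transcription factor Foxp3. They depend on IL-2, and most of them carry much of the IL-2 receptor and little CD127, the α chain of the IL-7 receptor, encoded by Il7r. CD127 is kept or regained on some Tregs, among them memory-like Tregs, for which IL-7 is a survival signal. Tregs acquire further programmes in tissues and at sites of inflammation, marked by factors such as Maf, Id2 and Blimp-1. Peptides for CD4+ T cells are shown on MHC class II, which in mice is made mainly by B cells, dendritic cells and macrophages rather than by T cells.

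Between 854775 and 1163085 read pairs were counted on genes in the DLN/CD127hi libraries and between 1315808 and 1802858 in the DLN/naive libraries. Levels are given as CPM, counts scaled to a common library total. A gene without a count may still have been present at up to 3, which were worth on average 2.80 CPM in DLN/CD127hi and 2.03 CPM in DLN/naive Tregs. Libraries of 1 subset were only moderately alike. Across 9094 autosomal genes, Spearman's rho was between 0.497 and 0.545 within DLN/CD127hi, between 0.579 and 0.612 within DLN/naive and between 0.521 and 0.556 across the subsets, as a description over genes that are not independent replicates. Many genes had no count in 1 library and a high count in another of the same subset.

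Both subsets carried Treg transcripts. Foxp3, which lies on the X chromosome, was at 246, 272 and 259 CPM in DLN/CD127hi and 377, 358 and 206 CPM in DLN/naive libraries 1, 2 and 3, and the ranges overlapped (log2 fold change -0.28 ± 0.55 SE, adjusted p = 0.908). EGFP was at 36.0, 29.9 and 5.18 CPM against 2.84, 44.8 and 48.4 CPM and overlapped likewise. The receptor chain of the gate, Il7r, was at 635, 476 and 678 CPM in DLN/CD127hi, 202, 788 and 348 CPM in DLN/naive and 265, 784 and 516 CPM in DLN/CD127-/lo Tregs. The CD127hi libraries lay inside the range of the naive ones, and the log2 difference of 0.42 ± 0.36 SE did not pass the test (adjusted p = 0.619). Cd4 was at 64.2, 110 and 109 CPM against 154, 42.7 and 106 CPM.

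One naive library went against the description of its mice. According to a figure legend of the study, naive lymph node mice were female and tolerant mice male. Xist, which is transcribed from the inactive X chromosome, had 570 and 655 counts in DLN/naive replicates 1 and 2 but 2 counts in replicate 3. The Y-linked genes Eif2s3y and Kdm5d had 1 and 0 and then 0 and 0 counts in replicates 1 and 2, and 319 and 238 counts in replicate 3. Ddx3y, also Y-linked, had 4 and 23 counts in replicates 1 and 2 and 224 in replicate 3. In the DLN/CD127hi libraries Xist had 3, 2 and 0 counts and Eif2s3y 240, 473 and 269 counts. The library labelled DLN/naive replicate 3 thus had the transcripts of male cells, and sex differs together with graft, treatment and gate for the other pair of naive libraries. The counts over all genes and over the class II, B-cell, natural killer, macrophage and dendritic, and effector Treg lists are also given without this library and with it as the only naive one.

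Of 24536 autosomal genes tested, 222 (0.905%) differed between DLN/CD127hi and DLN/naive Tregs at an adjusted p under 0.05 in edgeR's quasi-likelihood test on all 33 libraries. Of these, 127 (0.518%) were higher and 95 (0.387%) lower in DLN/CD127hi Tregs. Counts of called genes in a list below stand beside these shares of all genes. Genes called higher in DLN/CD127hi Tregs included Cd74 and other genes of MHC class II, B-cell receptor components, immunoglobulin segments, Plac8, Id2, the protease inhibitor Serpinb1a and gene models of satellite repeats. Genes called lower included the nuclear RNA Malat1 and the tRNA methyltransferase subunit Trmt11. The median log2 fold change of all autosomal genes was 0.40 and not 0, and it was 0.60 when the libraries were scaled by relative log expression (RLE), under which 156 genes were higher and 72 lower. It was 0.00 without DLN/CD127hi replicate 1, 0.18 without replicate 2 and 1.225 with DLN/naive replicate 3 as the only naive library. The shift lay in rare transcripts. The median was 1.17 over 12381 genes under 1 CPM on average, 0.89 over 4417 genes from 1 to 10 CPM, -0.05 over 5820 genes from 10 to 100 CPM and -0.20 over 1918 genes of 100 CPM or more. Of the 127 genes called higher 8 had a mean under 10 CPM, and of the 95 called lower none had.

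**Figure D1:**
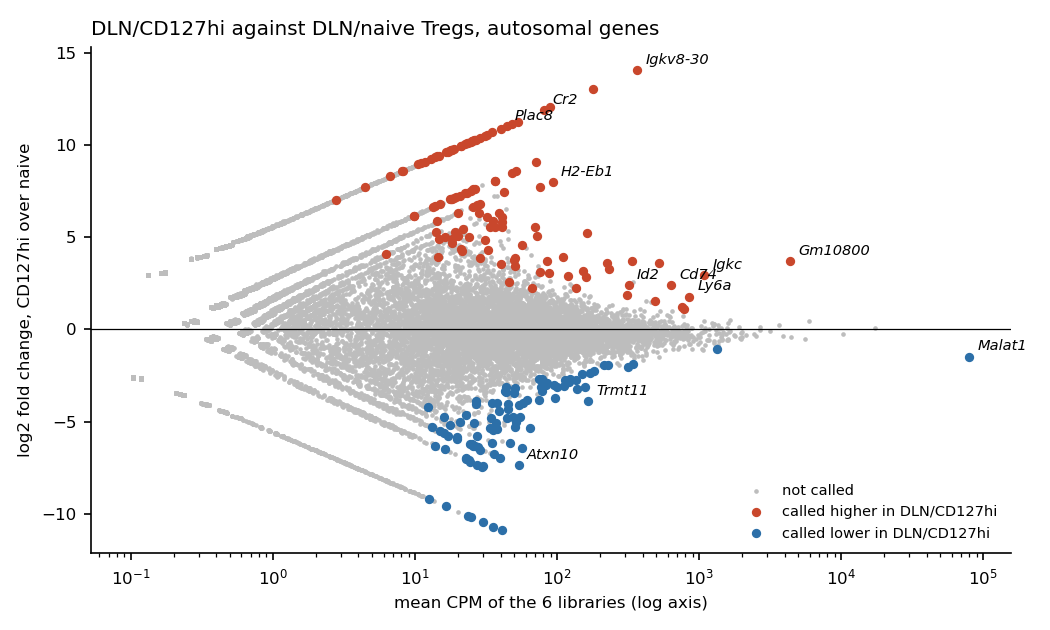
Log2 fold change of DLN/CD127hi over DLN/naive Tregs (vertical axis) against the mean CPM of the 6 libraries (horizontal log axis) for autosomal genes, with genes under 0.1 CPM not drawn. The cloud of rare genes lies above 0, with a median of 1.17 under 1 CPM, and the 222 called genes lie almost all above 10 CPM.

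How many genes were called depended on the libraries in the model. With the 6 libraries alone, 19 genes were called, 17 higher and 2 lower, all of them among the 222. Without DLN/naive replicate 3, 219 genes were called, of which 135 were among the 222, and with that library as the only naive one 169 were called, of which 80 were among the 222. Without DLN/CD127hi replicate 1, 229 were called, of which 131 were shared. Of the 127 genes called higher, the libraries of the subsets did not overlap for 72, where 5.12% of all autosomal genes were higher without overlap, 43 were called whichever of the 6 libraries was left out, and 31 met both conditions. A single library held over 90% of the DLN/CD127hi counts for 25 of the 127. Of the 95 genes called lower, 75 did not overlap, where 2.58% of all autosomal genes were lower without overlap, 21 were called whichever library was left out, and 18 met both conditions. Values of single libraries below show whether the subsets overlap for a gene.

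Genes of the class II molecules of the MHC and their invariant chain rose in DLN/CD127hi Tregs, while the other genes of the pathway's list did not pass the test. Of 10 genes of the class II pathway, 4 rose (Cd74, H2-Aa, H2-Ab1 and H2-Eb1), none fell, and the median log2 fold change was 1.46, beside 0.40 over all genes. The 4 calls stand beside 0.518% of all genes called higher. For 3 of the 10 genes the libraries were higher without overlap, as for 5.12% of all genes. The summed level of the 10 genes was 1670, 2121 and 2393 CPM in the DLN/CD127hi libraries in ascending order and 201, 324 and 942 CPM in the naive ones, without overlap. H2-Aa, H2-Ab1 and H2-Eb1 encode chains of the peptide-binding molecules I-A and I-E, and Cd74 encodes the invariant chain that guards their groove until peptide is loaded. The transactivator Ciita and the peptide editors H2-DMa and H2-DMb1 belong to the genes that did not pass the test. Of the 10 genes 6 had a positive and 4 a negative log2 fold change, and among the latter H2-Ob, a subunit of the inhibitor of peptide loading, was at 121, 7.88 and 1.04 CPM against 0, 153 and 183 CPM (log2 fold change -1.38, adjusted p = 0.411). The count was 4 without DLN/naive replicate 3, with a median of 2.97, and 2 with that library as the only naive one, with a median of 0.15 below the 1.225 over all genes. Without DLN/CD127hi replicate 1, 3 genes were called higher and 1, H2-Ob, lower. The likelihood ratio test called 2 genes and the model of the 6 libraries 3. In bulk RNA, a few cells with much of a transcript and many cells with little of it cannot be told apart, nor can fewer cells of a type and less RNA per cell.

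Cd74 was at 1213, 1151 and 818 CPM in the DLN/CD127hi libraries and 87.3, 45.5 and 474 CPM in the naive ones (log2 fold change 2.39 ± 0.40 SE, adjusted p = 1.39e-05). The highest naive library was replicate 3, and all DLN/CD127hi libraries were above it. H2-Aa, at chr17:34282744-34287823 on GRCm38, was at 585, 422 and 255 CPM against 80.2, 0 and 50.9 CPM (log2 fold change 3.27 ± 0.68 SE, adjusted p = 0.00132). H2-Eb1, at chr17:34305867-34316674, was at 323, 35.5 and 198 CPM, and in naive libraries it had 2.13 CPM in replicate 1 and 0 in the others, which gives a ratio of 258 with a 95% counting interval from 87.9 to 1256. H2-Ab1 was at 46.7, 404 and 365 CPM against 92.3, 0 and 0 CPM, and DLN/CD127hi replicate 1 was below naive replicate 1. Cd74 and H2-Eb1 kept their call whichever library was left out, while H2-Aa and H2-Ab1 each lost it once.

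The 300 bases around the start sites of H2-Aa and H2-Eb1 are printed because their Y box, an element of the class II promoter bound by NF-Y, can be read in both. They span 250 bases before the start and 50 after it, as RefSeq gives them on GRCm38.p6, at chr17:34287774-34288073 on the minus strand for H2-Aa and at chr17:34305617-34305916 on the plus strand for H2-Eb1. Capitals mark the letters CTGATTGG, searched on both strands, whose first base lies 51 bases before the start of H2-Aa and 62 before that of H2-Eb1.
H2-Aa: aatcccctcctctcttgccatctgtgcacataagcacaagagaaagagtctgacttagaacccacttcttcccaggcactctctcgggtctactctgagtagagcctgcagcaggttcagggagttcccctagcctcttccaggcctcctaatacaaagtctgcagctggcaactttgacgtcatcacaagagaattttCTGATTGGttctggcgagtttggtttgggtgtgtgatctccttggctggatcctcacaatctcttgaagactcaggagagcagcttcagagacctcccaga
H2-Eb1: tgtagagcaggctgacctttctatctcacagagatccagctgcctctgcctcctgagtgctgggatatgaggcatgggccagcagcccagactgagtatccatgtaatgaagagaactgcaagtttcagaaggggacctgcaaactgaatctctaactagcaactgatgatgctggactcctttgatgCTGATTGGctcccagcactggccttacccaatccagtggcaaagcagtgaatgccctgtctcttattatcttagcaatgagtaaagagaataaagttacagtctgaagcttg
The same letters were in 1346 of 32851 promoter sequences of this length (4.1%), in 905 of 16794 autosomal genes tested that had one (5.39%) and in 5 of 85 genes called higher that had one (5.88%). Of 7 class II pathway genes with a sequence, H2-Aa, H2-Eb1 and H2-Oa held them. A match describes the sequence only.

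B-lineage genes were higher in DLN/CD127hi Tregs. Of 25 B-cell genes, 12 rose, none fell, and 24 had a positive log2 fold change. Their median was 2.92, or 2.56 with genes at 0 in all naive libraries set to their bound, beside 0.40 over all genes. The 12 genes encode the antigen receptor and its signalling chain (Ighm, Ighd, Igkc, Cd79b), the kinase Blk, the coreceptors Cr2 and Cd22, the surface proteins Ms4a1, Fcer2a, Fcmr and Ly6d, and the B-lineage factor Ebf1. The 12 calls stand beside 0.518% of all genes called higher. For 10 of the 25 genes the libraries were higher without overlap, as for 5.12% of all genes, and 6 kept their call whichever library was left out. The count was 7 without DLN/CD127hi replicate 1, 12 without DLN/naive replicate 3, 5 with that library as the only naive one, 7 by the likelihood ratio test and 3 in the model of the 6 libraries.

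Cd79b, at chr11:106311341-106314762, encodes the β chain of the signalling pair of the B-cell receptor. It was at 199, 135 and 119 CPM in DLN/CD127hi libraries and at 0, 2.10 and 0 CPM in naive ones, a ratio of 223 with a counting interval from 75.8 to 1084 (log2 fold change 7.70 ± 1.12 SE, adjusted p = 1.51e-07). No library of 1 subset came near the other. Its partner Cd79a was at 44.8, 42.6 and 0 CPM against 0, 5.61 and 2.48 CPM and did not pass the test (adjusted p = 0.075). Blk, a kinase downstream of the receptor, was at 16.5, 54.4 and 91.2 CPM against 1.42, 0 and 0 CPM. Cr2, the complement receptor that lowers the threshold of the B-cell receptor, was at 183, 302 and 0 CPM against 0 in every naive library, at least 79.6-fold higher on average, and DLN/CD127hi replicate 3 had none. Cd22, an inhibitory coreceptor, was at 19.5, 83.5 and 2.07 CPM against 0.71, 0.70 and 2.48 CPM, where the same DLN/CD127hi replicate lay within the naive range. Ms4a1, which encodes CD20, was at 13.6, 19.7 and 2.07 CPM against 0, 1.40 and 0.62 CPM. The lineage factor Pax5 was at 3.89, 14.2 and 2.07 CPM against 1.42, 1.40 and 0 CPM and was not called.

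Several immunoglobulin constant regions were called higher, and some variable segments were found in 1 library only. Ighm, the heavy chain of IgM, was at 1185, 1215 and 813 CPM against 271, 648 and 453 CPM, so that it was abundant in naive Tregs too (log2 fold change 1.23 ± 0.29 SE, adjusted p = 0.00708). Igkc, the κ constant region at chr6:70726435-70726966, was at 4607, 620 and 546 CPM against 146, 157 and 446 CPM (log2 fold change 2.95 ± 0.41 SE, adjusted p = 3.38e-08). DLN/CD127hi replicate 1 held most of it, and naive replicate 3 was only a little below the other DLN/CD127hi libraries. The λ constant region Iglc2 was at 319, 1266 and 283 CPM against 116, 0 and 24.2 CPM, and Iglc3 at 190, 278 and 150 CPM against 41.2, 0 and 0 CPM. Reads of the near-identical λ constant regions could be split between them, so that values of single Iglc genes are uncertain. The variable segment Igkv8-30 was at 2193 CPM in DLN/CD127hi replicate 1 and 0 in the other 5 libraries, and Igkv6-32 was at 1079 CPM in that library and 0 in the others. Iglv3 was at 193 CPM in DLN/CD127hi replicate 3, 0.79 CPM in replicate 2 and 0 elsewhere, and Iglv2 was at 71.1, 435 and 31.1 CPM against 0 in every naive library. Beside 0.518% of all genes called higher and 0.387% lower, 13 of 209 immunoglobulin segments tested were called higher and 1, Igkv4-59, lower. The last was at 182 CPM in DLN/naive replicate 3 and 0 in the other 5 libraries. Of 12 listed immunoglobulin genes 10 were called, but the study had picked most of the 12 from these samples, so that the count is not independent evidence of their direction. It was 5 without DLN/CD127hi replicate 1, 6 with DLN/naive replicate 3 as the only naive library, 5 by the likelihood ratio test, 6 by DESeq2, 5 in the model of the 6 libraries, 5 after ComBat-Seq and 4 under the stricter filter, and 3 of the genes kept their call whichever library was left out. Mzb1, a chaperone of antibody-secreting and marginal zone B cells, was at 35.0, 52.0 and 19.7 CPM against 0 in every naive library, and it was the 1 gene called of 8 plasma-cell genes.

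**Figure D2:**
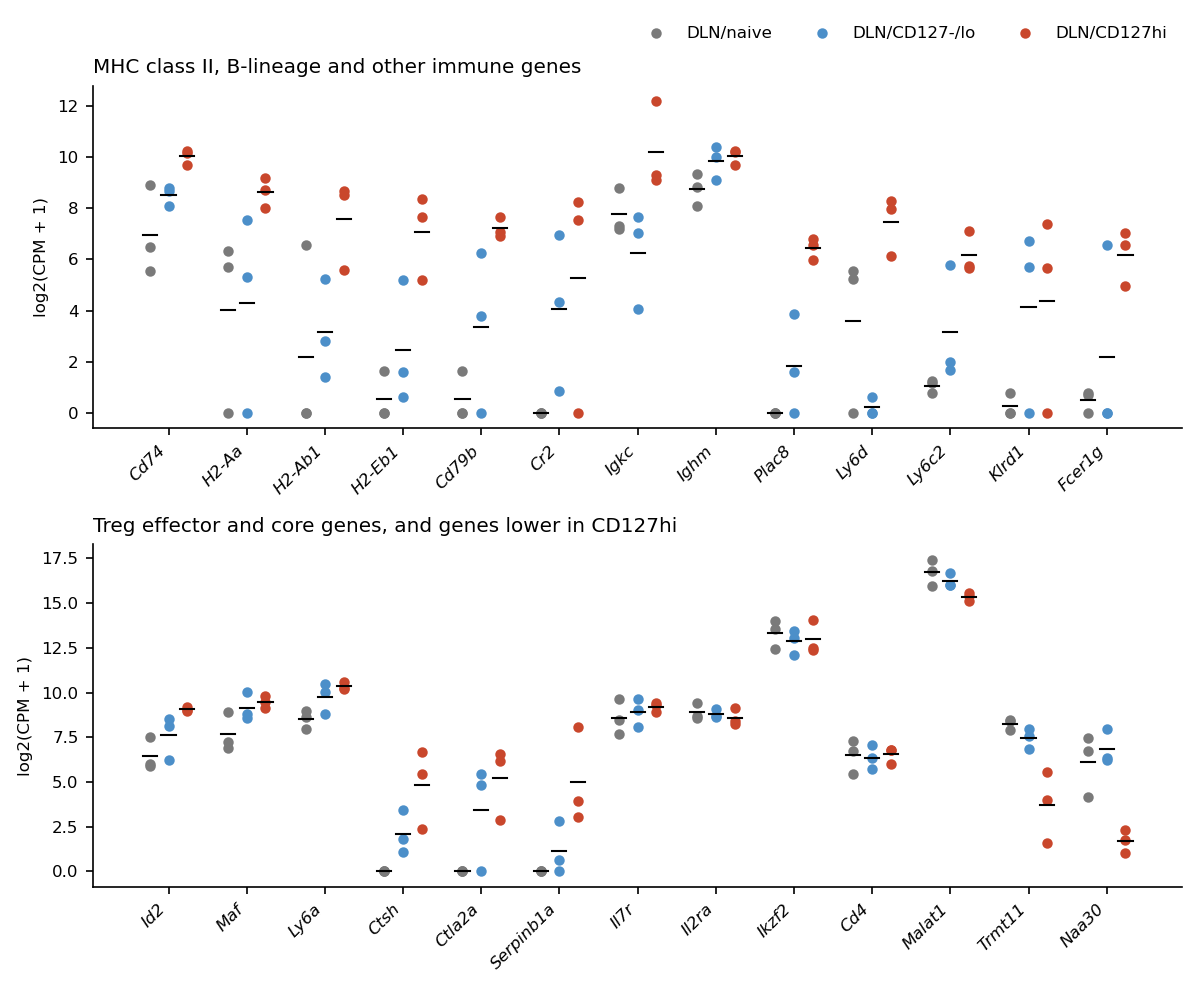
Log2(CPM + 1) of single genes in each of the 9 DLN libraries, with naive in grey, CD127-/lo in blue and CD127hi in red, and black bars at the mean of the log2 values. The upper panel shows class II, B-lineage, plasmacytoid and natural killer genes, where Cd79b is at 119 to 199 CPM in CD127hi and at most 2.10 CPM in naive libraries, and the lower panel Treg and other immune genes with Malat1, Trmt11 and Naa30.

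Plac8 and Ly6d, both picked by the study from these samples, were higher than in naive Tregs. Plac8, a small cysteine-rich protein of myeloid and lymphoid cells, was at 110, 92.2 and 62.2 CPM against 0 in every naive library, at least 43.4-fold higher, and 13.6, 1.99 and 0 CPM in DLN/CD127-/lo Tregs. It lies at chr5:100553725-100572245 and kept its call whichever library was left out (adjusted p = 9.35e-10), but not in the model of the 6 libraries (0.0529) or of the DLN libraries (0.162). Ly6d, a GPI-anchored protein of early B-lineage cells, was at 246, 314 and 69.5 CPM against 36.9, 0 and 45.9 CPM, and 0.55, 0 and 0 CPM in DLN/CD127-/lo Tregs (log2 fold change over naive 2.92 ± 0.75 SE, adjusted p = 0.0232). Its libraries did not overlap, although the lowest DLN/CD127hi library exceeded the highest naive one only modestly. Its call was lost without DLN/naive replicate 2 (adjusted p = 0.140) or DLN/CD127hi replicate 1 (0.136), by the likelihood ratio test (0.241) and DESeq2 (0.292), under the stricter filter (0.256), after ComBat-Seq (0.357) and in the model of the 6 libraries (0.601). Ly6c2, of the same family, was at 52.6, 139 and 49.8 CPM against 0.71, 1.40 and 1.24 CPM. Ly6a, which encodes Sca-1, was at 1232, 1520 and 1190 CPM against 253, 502 and 393 CPM (log2 fold change 1.78 ± 0.34 SE, adjusted p = 0.000269). Ly6-family genes lie in a cluster and resemble each other, and reads shared between copies were not counted.

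Plac8, Ly6d and Ly6c2 also stand among 12 genes of plasmacytoid dendritic cells, of which these 3 rose, none fell, and the median log2 fold change was 1.86, beside 0.518% of all genes called higher and a median of 0.40. The models of the 6 libraries and of the DLN libraries called 0 of the 11 genes tested, of which 4, all higher, had an unadjusted p under 0.05 in the model of the 6 libraries. Over all libraries the likelihood ratio test and DESeq2 called 2 each. Siglech, which defines that cell type, was at 1.95, 1.58 and 2.07 CPM against 11.4, 0 and 0 CPM, under the limit that a count of 3 sets in DLN/CD127hi Tregs. Summed over the 12 genes, the level was from 262 to 800 CPM in DLN/CD127hi and from 91.8 to 138 CPM in naive libraries.

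Natural killer and cytotoxic genes were higher for 5 of 18 (Klrd1, Klrk1, Klrc1, Fcer1g and Ccl5), with none lower and a median log2 fold change of 2.45, beside 0.518% of all genes called higher and a median of 0.40. Without DLN/CD127hi replicate 1 the median was 0.45, beside 0.00 over all genes. Klrd1, which encodes CD94, was at 167, 49.6 and 0 CPM against 0, 0.70 and 0 CPM. Its partner receptor Klrc1 was at 7.79, 91.4 and 0 CPM, and Klrk1, which encodes NKG2D, at 48.7, 17.3 and 0 CPM, both against 0 in every naive library. DLN/CD127hi replicate 3 thus had no count of the 3 receptors. Fcer1g, a signalling adaptor of Fc and natural killer receptors, was at 94.4, 128 and 30.1 CPM against 0.71, 0 and 0.62 CPM, without overlap. The chemokine Ccl5 was at 511, 116 and 222 CPM against 80.2, 0 and 37.2 CPM. Ncr1 and Klrb1c, which define natural killer cells in this strain, were at 0.97, 0.79 and 0 CPM and at 4.87, 0 and 0 CPM, against 0 in every naive library. The summed level of the 18 genes was from 617 to 1301 CPM against 132 to 526 CPM. The count was 4 without DLN/naive replicate 3 and 1 with that library as the only naive one. In the model of the 6 libraries edgeR's quasi-likelihood test called 0 of the 16 tested, of which 9 had an unadjusted p under 0.05, 7 of them higher, while over all libraries the likelihood ratio test called 4 and DESeq2 5.

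Of 20 macrophage and dendritic genes, 1 rose (Cst3), beside 0.518% of all genes called higher, and none fell. Of the 20, 9 were higher without overlap, where 5.12% of all genes were. DESeq2 called 4 of the 20, the count was 1 without DLN/naive replicate 3 and 0 with that library as the only naive one, and it was also 0 in the model of the 6 libraries, where 5 of the 18 tested had an unadjusted p under 0.05. Leaving out DLN/naive replicate 1, DLN/naive replicate 2 or DLN/CD127hi replicate 1 ended the call of Cst3. Cst3, the protease inhibitor cystatin C that is abundant in dendritic cells, was at 631, 438 and 402 CPM against 134, 54.0 and 210 CPM (log2 fold change 1.88 ± 0.53 SE, adjusted p = 0.0455). Lyz2, the lysozyme of macrophages, was at 535, 757 and 716 CPM against 322, 0 and 404 CPM. Itgam, which encodes CD11b, was at 0 in all 6 libraries. The summed level of the 20 genes was from 1187 to 1476 CPM in DLN/CD127hi and from 62.4 to 649 CPM in naive libraries. Cd8b1, a chain of the CD8 coreceptor, was called higher at 41.9, 0.79 and 119 CPM against 0 in every naive library, while Cd8a was at 144, 0.79 and 1.04 CPM against 0, 0 and 70.1 CPM. Of 9 stromal and 4 erythroid genes tested, edgeR and DESeq2 called 0, and 1 stromal gene had an unadjusted p under 0.05 in the quasi-likelihood test.

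The lists of other cell types are not a separate observation from the immunoglobulin, Plac8 and natural killer results. The B-cell list holds Ighm, Ighd, Igkc and Ly6d, the plasmacytoid list holds Plac8 and Ly6d, and the natural killer list is itself that result. The summed level of the 25 B-cell genes, in ascending order, was 1937, 3407 and 7506 CPM in DLN/CD127hi against 762, 1039 and 1227 CPM in naive libraries. The methods state a high purity after the sort. The part that other cells had in these results was not tested. Of 19 T-cell genes 0 were called by edgeR or DESeq2, 3 had an unadjusted p under 0.05 in the quasi-likelihood test, and the median log2 fold change was -0.11, or 0.08 under RLE scaling, with sums from 9372 to 13044 CPM against 11574 to 16602 CPM.

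**Figure D3:**
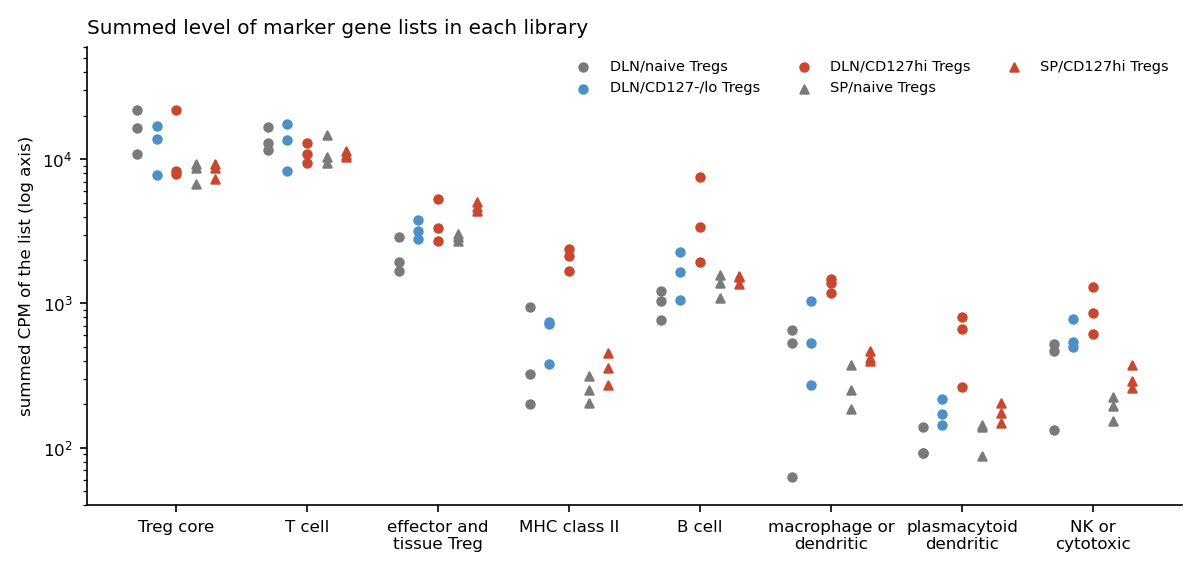
Summed CPM of 8 gene lists (vertical log axis) in every DLN library (circles) of naive, CD127-/lo and CD127hi Tregs and every SP library (triangles) of naive and CD127hi Tregs. In the DLN the CD127hi circles lie above the naive ones for the B-cell, class II, macrophage and dendritic, plasmacytoid and natural killer lists, and overlap with them for both Treg lists and the T-cell list.

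Among genes of Tregs themselves, Id2 and Maf rose. They were the 2 genes called of 29 genes of effector and tissue Tregs, beside 0.518% of all genes called higher, and none fell. The median log2 fold change of the list was 0.43. Over all genes it was 0.40, but -0.05 over genes from 10 to 100 CPM and -0.20 over genes of 100 CPM or more. The count was 3 without DLN/naive replicate 3, 1 with that library as the only naive one and 3 by DESeq2, and in the model of the 6 libraries it was 0, with 4 of the 29 at an unadjusted p under 0.05. Id2, an inhibitor of E proteins, was at 500, 524 and 591 CPM in DLN/CD127hi and 57.5, 62.4 and 183 CPM in naive libraries (log2 fold change 2.41 ± 0.45 SE, adjusted p = 0.000200). The DLN/CD127hi libraries were close to each other and far above every naive one, and the call was kept whichever library was left out. Id2 is also active in innate lymphoid cells, of whose 8 listed genes it was the only one called. Maf, which drives IL-10 and the programmes of RORγt+ and follicular Tregs, was at 721, 561 and 891 CPM against 117, 147 and 483 CPM, with naive replicate 3 nearest to the other subset (log2 fold change 1.54 ± 0.43 SE, adjusted p = 0.0482), and 4 of the 6 fits without 1 library did not call it.

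The core of the Treg programme was not called in either direction. Of 13 autosomal core genes 0 were called by edgeR or DESeq2, 3 had an unadjusted p under 0.05 in the quasi-likelihood test, each of them lower, and all 13 had a negative log2 fold change, with a median of -0.48 where all genes had 0.40 and genes of 100 CPM or more had -0.20. Without DLN/CD127hi replicate 3 the median was -1.09 and 1 gene, Ikzf2, was called lower. Il2ra, which encodes CD25, was at 336, 301 and 572 CPM against 418, 686 and 379 CPM. Ikzf2, which encodes Helios, was at 5401, 5780 and 17172 CPM against 12156, 5600 and 16146 CPM, so that 1 library set the mean of DLN/CD127hi Tregs, and without that library, replicate 3, its log2 fold change was -1.09 (adjusted p = 0.000642). Ctla4 was at 353, 328 and 970 CPM against 641, 753 and 373 CPM. The same DLN/CD127hi library, replicate 3, was the highest of its subset for each of these genes. Of 14 genes of resting lymphoid homing 0 were called by edgeR or DESeq2 and 1, lower, had an unadjusted p under 0.05, with a median log2 fold change of -0.06.

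The IL-7 pathway was without a call in edgeR as well. Of 12 autosomal genes of IL-7 and STAT5 signalling and survival, 0 passed either edgeR test, 2, both lower, had an unadjusted p under 0.05 in the quasi-likelihood test, and DESeq2 called 1, Jak3, lower. Their median log2 fold change was -0.03, and it was 0.16 under RLE scaling. The summed level of the 12 genes was 2254, 2076 and 3046 CPM in DLN/CD127hi and 3501, 3268 and 3280 CPM in naive libraries, lower without overlap. Bcl2, the survival factor that IL-7 induces in T cells, was at 565, 524 and 937 CPM in DLN/CD127hi and 1694, 1102 and 1497 CPM in naive libraries. All DLN/CD127hi libraries were lower, and the log2 difference of -1.08 ± 0.38 SE did not pass the test (adjusted p = 0.183). In DLN/CD127-/lo Tregs Bcl2 was at 632, 455 and 1156 CPM, which overlapped with DLN/CD127hi Tregs.

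Other receptors and secreted factors rose singly. Il1r2, the decoy receptor for IL-1, was at 94.4, 91.4 and 139 CPM against 0, 0 and 13 CPM, and at 76.9, 5.97 and 102 CPM in DLN/CD127-/lo Tregs. Il18rap, a chain of the IL-18 receptor, was at 56.5, 110 and 0 CPM against 0.71, 0 and 1.24 CPM. Cxcr6, the receptor for CXCL16 and the 1 gene called of 12 chemokine receptors, was at 136, 2.36 and 1.04 CPM against 0 in every naive library, so that replicate 1 held nearly all of it. The chemokine Ccl8 was at 320, 582 and 43.5 CPM against 0, 0 and 25.4 CPM. Rsad2, which encodes the antiviral protein viperin, was the 1 gene called of 16 type I interferon genes, at 30.2, 128 and 0 CPM against 0 in every naive library. It kept its call in 2 of the 6 fits that left out 1 library, and lost it without each of the naive libraries and without DLN/CD127hi replicate 2 (adjusted p from 0.0798 to 0.0845), under the stricter filter on low counts (0.0806), after ComBat-Seq (0.208) and in the model of the 6 libraries (0.407). Of 17 interferon γ genes 0 were called by edgeR or DESeq2 and 0 had an unadjusted p under 0.05 in the quasi-likelihood test. Of 19 immediate early genes edgeR called 0 and DESeq2 1, with 4 at an unadjusted p under 0.05 in the quasi-likelihood test.

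Serpinb1a, Ctla2a, Ctsh and Mef2c were also picked by the study from these samples. Serpinb1a, an inhibitor of granule serine proteases, was at 270, 14.2 and 7.26 CPM against 0 in every naive library, at least 47.8-fold higher. Ctla2a, a cathepsin inhibitor of T cells, was at 94.4, 70.1 and 6.22 CPM, and the cathepsin Ctsh at 102, 41.8 and 4.15 CPM, both against 0 in every naive library. DLN/CD127hi replicate 1 was the highest for these 3 genes and replicate 3 the lowest. Sec22a, AW209491, Klhl25, Gm42372 and Tbxa2r completed the 12 largest, all at 0 in every naive library, and each with at least 1 DLN/CD127hi library at or under 1.04 CPM, below the limit of a count of 3. The transcription factor Mef2c was at 41.9, 156 and 24.9 CPM against 18.5, 0 and 0.62 CPM. Slc35a1, the CMP-sialic acid transporter, was at 49.6, 52.0 and 307 CPM against 0, 5.61 and 3.10 CPM, and Sumo3, a ubiquitin-like modifier, at 61.3, 42.6 and 85.0 CPM against 1.42, 0 and 1.24 CPM. Serinc3, a transmembrane protein of the Serinc family, was at 989, 1325 and 922 CPM against 733, 387 and 367 CPM.

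Of the genes lower in DLN/CD127hi Tregs, 2 belonged to the lists, Anxa2 and Igkv4-59. The lists hold only a small part of all genes tested, so that nothing is read from this count. Malat1, a long noncoding RNA of nuclear speckles on chromosome 19, was at 43424, 35712 and 47794 CPM in DLN/CD127hi and 175140, 64310 and 111900 CPM in naive libraries, without overlap (log2 fold change -1.47 ± 0.15 SE, adjusted p = 4.88e-15). Of the other tests on all libraries, the likelihood ratio test (adjusted p = 0.157) and DESeq2 (adjusted p = 0.0527) did not call it, while the model of the 6 libraries did. Malat1 was the only 1 of the 10 most abundant lower genes that was also called in the spleen. Trmt11, at chr10:30534225-30600749, a subunit of a tRNA methyltransferase, was at 1.95, 15 and 45.6 CPM against 351, 242 and 338 CPM (log2 fold change -3.90 ± 0.77 SE, adjusted p = 0.000537). Naa30, a catalytic subunit of an N-terminal acetyltransferase, was at 3.89, 2.36 and 1.04 CPM against 17, 172 and 107 CPM. Malat1 and Trmt11 were the 2 lower genes that the model of the 6 libraries called, and all 3 kept their call whichever library was left out.

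The 10 lower genes with the highest level and no overlap included Malat1, Trmt11, Shprh, Fubp1, Smc6, Psmc4, Rer1, Orc4 and Smc4. Smc6, of the SMC5/6 complex, was at 92.5, 82.8 and 193 CPM against 689, 448 and 380 CPM. Smc4, of condensin, was at 861, 948 and 750 CPM against 1529, 2092 and 1804 CPM, and Orc4, of the origin recognition complex, at 102, 95.4 and 69.5 CPM against 314, 428 and 277 CPM. Fubp1, a single-stranded DNA binding protein, was at 154, 130 and 156 CPM against 452, 678 and 471 CPM (log2 fold change -1.86 ± 0.43 SE, adjusted p = 0.00536), with narrow spreads in both subsets. Of these, Fubp1 kept its call whichever library was left out, while Smc6, Smc4 and Orc4 lost it in at least 3 of the 6 fits. Shprh, a ubiquitin ligase of DNA repair, was at 22.4, 15 and 59.1 CPM against 364, 423 and 60.8 CPM, where naive replicate 3 was almost as low as DLN/CD127hi replicate 3. Psmc4, of the proteasome, was at 74.9, 4.73 and 0 CPM against 153, 306 and 287 CPM. Of 16 cell cycle genes 0 were called by edgeR or DESeq2, 1 had an unadjusted p under 0.05 in the quasi-likelihood test, and the median log2 fold change was -0.18.

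Among the largest falls, transcripts were nearly absent from DLN/CD127hi libraries. Tmem35b was at 0 in all of them against 67.5, 101 and 75.7 CPM, at least 29.1-fold lower. Atxn10, a cytoplasmic protein linked to ataxia, was at 0, 0.79 and 1.04 CPM against 97.3, 44.1 and 178 CPM, a naive to CD127hi ratio of 179 with a counting interval from 49.2 to 1478. Mlx, the partner of glucose-sensing Mondo factors, was at 0.97, 0 and 0 CPM against 54.0, 21 and 105 CPM. Cdkn2c, an inhibitor of CDK4 and CDK6, was at 0.97, 0 and 0 CPM against 61.8, 37.1 and 36.6 CPM. Tmem35b, Atxn10 and Mlx kept their call whichever library was left out, while Cdkn2c was called in 2 of the 6 fits. Hspd1, a mitochondrial chaperone, was at 0.97, 0 and 0 CPM against 98.0, 45.5 and 0 CPM, so that naive replicate 3 had none. Its counterpart Hspa9 was higher, at 65.2, 171 and 232 CPM against 12.1, 25.9 and 18.6 CPM. Anxa2 was the 1 lower gene of 15 S100, galectin and cytoskeleton genes, at 13.6, 2.36 and 2.07 CPM against 0, 65.2 and 240 CPM. Its call was lost without DLN/naive replicate 3 (adjusted p = 0.346), without DLN/CD127hi replicate 2 (0.0604) or 3 (0.0627), under the stricter filter (0.149), after ComBat-Seq (0.556) and in the models of the 6 libraries (0.601) and of the DLN libraries (0.581). The likelihood ratio test, DESeq2 and the stricter filter called 1 gene of that list, S100a4, higher. Of 82 ribosomal protein genes, 79 of oxidative phosphorylation and 13 of glycolysis, edgeR called 0, and DESeq2 called 1 of oxidative phosphorylation. At an unadjusted p under 0.05 in the quasi-likelihood test were 5, 8 and 1 of them, and their medians were -0.15, -0.31 and -0.12.

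Gene models of satellite repeats moved with the share of reads outside genes. Gm10800, Gm10801 and Gm21738 were all called higher. Gm10800 was at 18018, 5424 and 1033 CPM in DLN/CD127hi and 566, 1047 and 274 CPM in naive libraries, and the lowest DLN/CD127hi library was just under the highest naive one. In DLN/CD127-/lo Tregs it was at 8363, 39557 and 522 CPM. Of the reads on genes and outside genes together, 54.2%, 43.5% and 38.9% lay outside genes in the DLN/CD127hi libraries and 37.9%, 41.3% and 29.9% in the naive ones. The 9 DLN libraries stood in the same order on both measures. DLN/CD127hi replicates 1 and 2 also had counts on 17444 and 16583 genes, against 11126 in replicate 3 and from 12425 to 13370 in the naive libraries. The part of these library properties in the calls of rare genes was not tested.

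**Figure D4:**
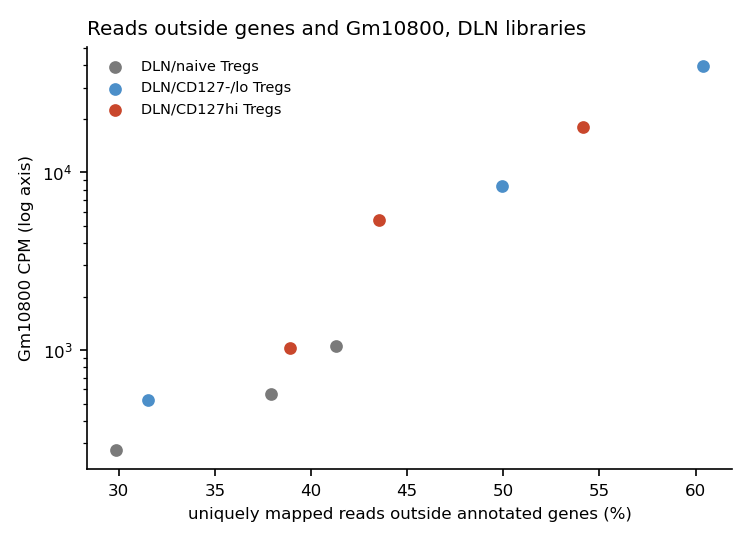
CPM of the satellite gene model Gm10800 (vertical log axis) against the percent of reads outside genes (horizontal axis) in the 9 DLN libraries. Both measures put the libraries in the same order, from DLN/naive replicate 3 with 29.9% and 274 CPM to DLN/CD127-/lo replicate 2 with 60.4% and 39557 CPM.

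Against DLN/CD127-/lo Tregs of the same tolerant lymph nodes, 99 of 24536 autosomal genes (0.403%) differed, 52 higher and 47 lower in DLN/CD127hi Tregs. This comparison shares the DLN/CD127hi libraries with that against naive Tregs, so its values only stand beside it. The subsets here were alike in graft and treatment and differed in the CD127 gate. Ly6d, H2-Ab1, H2-Eb1, H2-Aa, Cd74, Plac8, Igkc and Iglc2 were called higher here too. Cd74 was at 270, 438 and 411 CPM in DLN/CD127-/lo Tregs (log2 fold change 1.51, adjusted p = 0.0355), and H2-Ab1 at 1.64, 5.97 and 36.8 CPM (log2 fold change 4.21, adjusted p = 0.000115). Igkc was at 15.8, 201 and 130 CPM (log2 fold change 4.06, adjusted p = 1.17e-13), and Ly6d had the value given above (log2 fold change 9.55, adjusted p = 1.68e-10). Malat1, Trmt11, Naa30, Atxn10 and Fubp1 were called lower.

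Other genes were not called between the gates. Id2 was at 73.6, 280 and 368 CPM in DLN/CD127-/lo Tregs, below every DLN/CD127hi library, with a log2 difference of 1.16 (adjusted p = 0.288). Maf was at 1035, 378 and 443 CPM, Ly6a at 1046, 450 and 1415 CPM and Ighm at 1345, 1028 and 548 CPM, and these ranges overlapped with those of DLN/CD127hi Tregs. Cd79b was at 74.7, 12.9 and 0 CPM (adjusted p = 0.209), and Klrd1 at 0, 106 and 50.7 CPM. Summed over the 25 B-cell genes, DLN/CD127-/lo libraries had from 1048 to 2257 CPM, and the highest of them was above the lowest DLN/CD127hi library. Between DLN/CD127-/lo and DLN/naive Tregs, 83 genes were called, 56 of them higher.

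In the spleen, the same comparison of CD127hi with naive Tregs called 5 autosomal genes, 3 of them higher. No library is shared with the lymph node, but tissue and sequencer differ together and cannot be told apart. The sex of the naive mice differs as well, since all SP/naive libraries had transcripts of male cells, with 1268, 795 and 1222 counts of Eif2s3y and 1, 16 and 0 of Xist. Malat1 was lower in both (spleen log2 fold change -1.30, adjusted p = 1.05e-11), and the cathepsin gene Ctsh (5.81, adjusted p = 0.0286) and Mef2c (4.84, adjusted p = 0.0143) were higher in both. Iglc1, called higher in the lymph node at 162, 117 and 0 CPM against 0, 0 and 20.5 CPM, was called lower in the spleen. The fifth gene called there was Cd79a, which missed the threshold in the lymph node. Of the 127 genes called higher in the lymph node, 77 (60.6%) had a positive and 46 (36.2%) a negative log2 fold change in the spleen. Their median there was 0.28, beside 0.00 over all genes. Of the 95 called lower, 52 (54.7%) were negative and 42 (44.2%) positive in the spleen. Of all autosomal genes, 43.6% were positive and 43.8% negative there. The remaining genes were at 0, a larger share over all genes than among called ones, so that the percentages are not like for like.

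The CD127hi effect itself differed between lymph node and spleen for 55 of 24536 genes (0.224%), of which 38 had the larger value in the lymph node. Among them were 30 of the 127 genes called higher in the lymph node, such as Cd79b, Cr2, Ly6d, Igkc and Plac8, and 15 of the 95 called lower, such as Atxn10 and Naa30. For Cd74, H2-Aa, H2-Ab1, H2-Eb1, Id2, Maf and Ly6a the difference between the tissues did not pass the test. Their spleen log2 fold changes were from 0.55 for Ly6a to 3.07 for H2-Eb1, and each was smaller than in the lymph node. When a gene had to reach 10 counts in 3 or more libraries to be tested, 1 gene differed between the tissues in place of 55. With DLN/naive replicate 3, the male one, as the only naive lymph node library, 70 genes differed, of which 21 were among the 55.

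**Figure D5:**
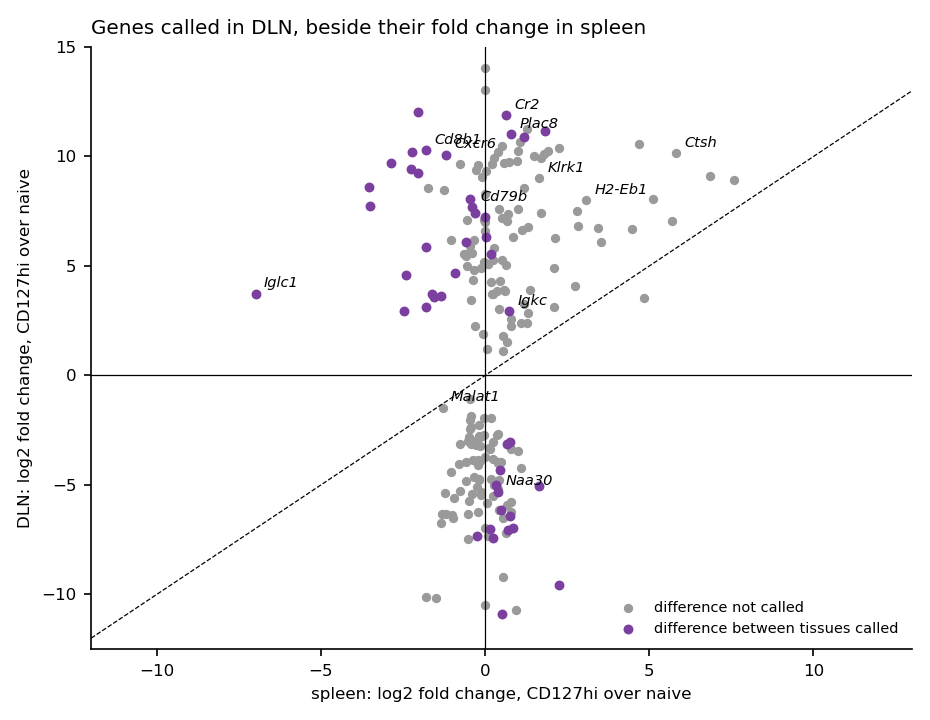
Log2 fold change of CD127hi over naive Tregs in the DLN (vertical axis) against that in the spleen (horizontal axis) for the 222 genes called in the DLN, with genes whose effect differed between the tissues in purple and a dashed line of equality. Spleen values gather near 0, with a median of 0.28 for the 127 higher genes, and Malat1, Ctsh and Mef2c are called the same way in both.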

How the data were processed

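RNA of sorted cells was amplified with SMART-Seq v4 and sequenced as unstranded read pairs, the DLN libraries on a MiSeq and the others on a NextSeq 500. The authors trimmed reads with Trim Galore and aligned them with STAR to mm10 (GRCm38) with EGFP added, in versions not given in the sources used here. The deposited values are raw counts per gene without normalization. The methods name HTSeq, and the files have STAR's layout. Counts of both strands together were used, so that overlapping and antisense genes cannot be told apart, and reads of near-identical copies were not counted. The 4 rows of reads without a gene were dropped and used only for the share of reads outside genes.

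All 33 libraries entered 1 model with a mean per subset in edgeR 4.0.16 (R 4.3.3, limma 3.58.1). A gene was tested if any library reached 1 CPM, which 25347 did, and libraries were scaled by TMM. Comparisons used the quasi-likelihood test, adjusted by Benjamini-Hochberg across the genes tested, and a threshold of 0.05, and calls were counted over 24536 genes on autosomes of GENCODE vM21. CPM are scaled by TMM, and SEs follow from the F statistic. Where a subset had 0 counts in every library, fold changes are bounds at 3 counts per library, and where it had 1 to 3 counts in all, ratios have exact 95% intervals. Bounds and intervals cover counting error only. The smallest p of an exact permutation test of 3 against 3 is 0.1, so that none was used.

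Genes named are Foxp3, EGFP, Il7r and Cd4, genes of the lists, and, among called genes without overlap, the 12 with the largest fold change and the 10 with the highest CPM per direction. Igkv4-59, Cd22, Hspa9, Hspd1, Il1r2, Il18rap, Naa30, Slc35a1, Sumo3, the sex-linked genes and the satellite models that fall outside this rule were chosen after their values were seen. Some genes that the rule names are not reported here. The members and lists were chosen with earlier results of these data known. The scripts were tested on simulated counts. Alternatives were the likelihood ratio test, DESeq2 1.42.0, RLE scaling, other filters, smaller models, ComBat-Seq (sva 3.50.0) with the sequencer as batch, a replicate block and leaving out libraries. Calculations and plots also used Python 3.11.15, numpy 2.4.6, pandas 2.3.3, scipy 1.17.1 and matplotlib 3.10.9. Deviations of same-numbered libraries correlated little, and numbers were not taken as pairs, although a pairing is not excluded.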

Additional observations from a re-analysis of the deposited data

Results flagged for a closer look

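The effect of CD127hi against naive Tregs differed between DLN and spleen, in edgeR's quasi-likelihood test of the difference itself, for the genes named here, with adjusted p from 4.21e-11 to 0.0371. The values below are the log2 fold change in the DLN minus that in the spleen, where tissue, sequencer and, for DLN/naive replicates 1 and 2, the sex of the naive mice differ together and cannot be told apart. With DLN/naive replicate 3 as the only naive lymph node library, 21 of the 55 genes that differed were called again. Fold changes of genes with 0 counts in a subset depend on the prior count and are no bounds.

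Among B-lineage genes the difference was 8.10 for Cd79b, 11.25 for Cr2, 5.62 for Cd22, 11.23 for Fcer2a and 5.39 for Ly6d. Among immunoglobulin and plasma-cell genes it was 2.21 for Igkc, 10.73 for Iglc1, 14.08 for Iglv2 and 12.56 for Mzb1. For Plac8 it was 10.21, for Cd8b1 12.09, for Cxcr6 11.28, for Il1r2 7.03 and for Serpinb1a 9.32. For genes outside the immune lists it was 5.36 for Slc35a1, 6.65 for Sumo3, 9.71 for Sec22a and 5.33 for the satellite model Gm10800.

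Among genes lower in the DLN it was -5.69 for Naa30, -7.10 for Atxn10, -4.75 for Cd2ap, -3.80 for Shprh, -11.42 for Tmem35b and -7.19 for Cdc23. It was -7.63 for Mlx, -7.78 for Hspd1, -7.82 for Zc3h8 and -7.17 for 3110040N11Rik. Among genes that reached 10 counts in 3 or more libraries, 1 gene on all autosomes differed.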

How the results depend on the processing

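In place of the 222 genes called between DLN/CD127hi and DLN/naive Tregs, 924 were called by DESeq2, 121 with at least 10 counts in at least 3 libraries, 19 in a model of the compared libraries, 17 in a model of the DLN libraries and 51 after ComBat-Seq. Leaving out each library in turn gave 193 to 347 calls, the highest without DLN/CD127hi replicate 2. In place of the 55 genes that differed between DLN and spleen, the counts were 288 by DESeq2, 1 with the stricter filter, 11 in the compared libraries and 11 after ComBat-Seq, and 37 to 110 without each library in turn, the highest again without DLN/CD127hi replicate 2. In place of the 99 genes between DLN/CD127hi and DLN/CD127-/lo Tregs, the likelihood ratio test called 167, DESeq2 710, the stricter filter 63, the compared libraries 10, the DLN libraries 9 and ComBat-Seq 14, and leaving out each library gave 108 to 219, with 166 without DLN/CD127-/lo replicate 3 and 219 without DLN/CD127hi replicate 2. The causes were not tested, except that the smaller models hold fewer libraries and the stricter filter fewer genes. With naive replicate 3 as the only naive library, chosen after seeing the data, 169 and 70 genes were called in the first and the second comparison, and the lone library is assumed to vary like the other subsets.

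With the replicate number as a block, 200, 58 and 99 genes were called in the 3 comparisons. Same-numbered DLN/CD127hi and DLN/naive libraries correlated at 0.0165, 0.0094 and 0.046 in their deviations from the subset means. Between DLN/CD127hi and DLN/CD127-/lo libraries the values were -0.0231, -0.0022 and 0.0301, and between DLN/naive and DLN/CD127-/lo libraries -0.0098, 0.0771 and 0.0778. Not every library correlated best with its own number. In libraries that are only moderately alike, such small values can neither show nor exclude a pairing.

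Of 1344 values of the 84 called genes followed under alternatives, 929 kept their call, 414 lost it, and 1 changed direction, Hspd1 with naive replicate 3 as the only naive library (3.20). Among genes not called, with that library only Foxp3 was at 0.39 and Il2ra at 0.13, and leaving out each library gave -0.70 to 0.0174 for Il2ra, -1.09 to 0.0901 for Ikzf2 and -0.46 to 0.34 for Cd4. Cd4 was at 0.0756 by DESeq2, 0.0754 by RLE and 0.01 with the stricter filter. Depth limits genes under about 3 counts per library, and no direction is read from them.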
